A study of Rattus norvegicus with 4 samples.

Results

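Synovium that had received human AdMSCs was compared with synovium that had received PBS, a salt buffer, in rats with osteoarthritis, with 1 bulk messenger RNA library on each side. The library of AdMSC-injected tissue (AdMSC 1) was set against the PBS library that shares the word Ad in its title (PBS 1). Genes with at least 5 TPM in either of these libraries were taken, which gave 10839 of the 17899 rat genes in the table. TPM is a length-normalised share of all transcripts assigned to the rat genes of the table. Whether reads of the injected human cells were counted for rat genes is not given in the sources used here. Of the 10839 genes, 9211 reached 5 TPM in both libraries, 702 in AdMSC 1 alone and 926 in PBS 1 alone. The floor let the 702 in through AdMSC 1 and the 926 through PBS 1. This tilts the ratios of the 702 to the higher and of the 926 to the lower side, and list counts and medians carry that tilt. At the edge of the floor, Robo1 entered with 5 TPM in PBS 1 and Dnase1l3, at 4.99 TPM in PBS 1, did not. All ratios are log2 ratios of TPM + 1, AdMSC 1 over PBS 1 unless another pair is named, a scale that understates the difference of low genes. A gene is called higher or lower where the ratio is at least 2-fold.

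The other libraries of the study are shown beside these values. PBS 2 came from osteoarthritic synovium injected with PBS and has the word Sy in its title, and SyMSC 1 came from osteoarthritic synovium injected with human SyMSCs. The labels spell out neither cell abbreviation, do not explain the word mix in the titles of both PBS libraries, and give no strain, age or sex. Synovium was collected 1 day after cell injection, and the interval after PBS is not given in the sources used here. Whether the 4 libraries are from different animals is not stated in the labels. With 1 library a side there is no test and no replicate check, and the ratio of PBS 2 to PBS 1 over the same genes serves as the measured spread between PBS libraries. TPM keeps no read depth, so the precision of counting behind each value is unknown. In bulk tissue, fewer cells of a type and less RNA per cell cannot be told apart.

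The synovium is a thin tissue with a surface lining of macrophages and fibroblasts, which make lubricin and hyaluronan, over a looser sublining of collagen-rich connective tissue with vessels, nerve and fat. In an inflamed joint, cytokines such as interleukin 1 beta act through NF-kB to induce chemokines, which draw neutrophils and monocytes out of the blood. Arriving monocytes become macrophages, and activated myeloid cells rely on glycolysis, while fibroblasts secrete metalloproteinases that cleave the matrix.

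AdMSC 1 differed from PBS 1 far more widely than the PBS libraries differed from each other. 1205 genes (11.1% of 10839) were higher in AdMSC 1 and 1328 (12.3%) were lower, whereas 88 (0.812%) were higher and 139 (1.28%) lower in PBS 2 than in PBS 1. When a gene had to lie past 2-fold of both PBS libraries, 1037 (9.57%) were higher and 1074 (9.91%) lower. The median absolute log2 ratio was 0.47 for AdMSC 1 over PBS 1 and 0.15 for PBS 2 over PBS 1. Ratios past 4-fold were held by 337 genes on the higher and 355 on the lower side of AdMSC 1 over PBS 1, and by 26 and 40 genes for PBS 2 over PBS 1. The median over all 10839 genes was 0.07, with quartiles at -0.42 and 0.50, and 8306 genes were within 2-fold of PBS 1. Counts of each gene list below stand beside the shares of 11.1% higher and 12.3% lower over all genes.

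**Figure D1:**
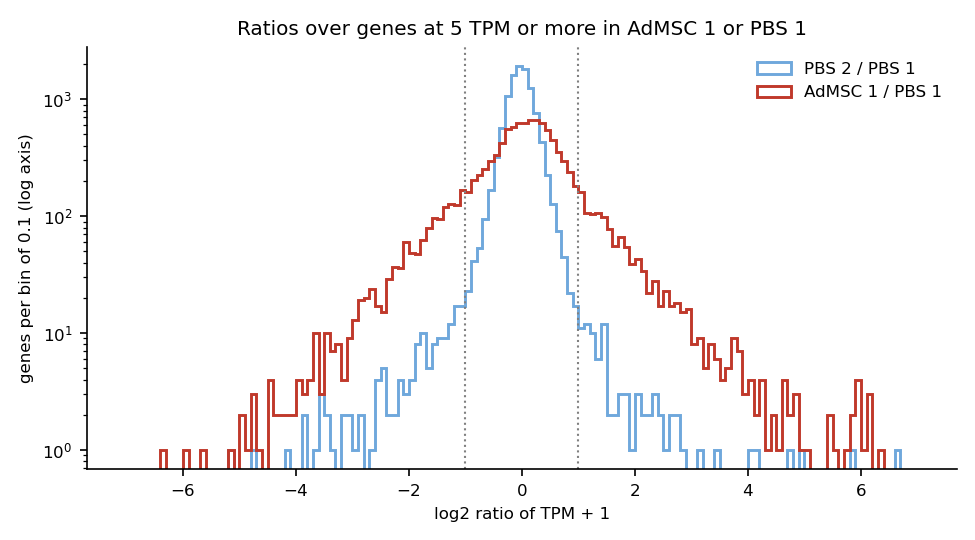
Number of genes (log axis) by log2 ratio of TPM + 1, in bins of 0.1, over the 10839 genes at 5 TPM or more in AdMSC 1 or PBS 1; dotted lines mark 2-fold. AdMSC 1 over PBS 1 has a median absolute ratio of 0.47 and spreads more widely than PBS 2 over PBS 1, with 0.15.

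The share of genes past 2-fold was highest among abundant genes. It was 24.2% among the 2015 genes whose higher value lay from 5 to 10 TPM, 21.0% among the 4069 genes from 10 to 30 TPM and 34.9% among the 189 genes at 1000 TPM or more. For PBS 2 over PBS 1 the same shares were 2.73%, 1.79% and 2.12%. The 1205 higher genes made up 21.0% of all transcripts in AdMSC 1 and 6.52% in PBS 1, with 7.14% in PBS 2. The 1328 lower genes made up 6.56% in AdMSC 1, 22.8% in PBS 1 and 20.5% in PBS 2. Because TPM has a fixed total, a larger share of the first set leaves less for every other gene, and a difference in share cannot be told apart from one in amount per tissue.

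The 5 most abundant genes of AdMSC 1 were Lyz2, Apoe, Ftl1, Tmsb4x and Spp1, and those of PBS 1 were Hba1, Sparc, Col1a1, Col3a1 and Rps29. Spp1, which encodes the secreted phosphoprotein osteopontin, thus stood among the most abundant transcripts of AdMSC 1. Ftl1, the ferritin light chain, had 11039 TPM in AdMSC 1, 6624 TPM in PBS 1, 6595 TPM in PBS 2 and 13256 TPM in SyMSC 1 (0.74). Tmsb4x, the actin-binding thymosin beta 4, had a ratio of 0.49, and Rps29, a ribosomal protein, -0.38, neither of them past 2-fold. The tissue label could be checked against synovial genes. The lubricin gene Prg4 was at 4192 TPM in AdMSC 1, 3930.3 TPM in PBS 1, 3765 TPM in PBS 2 and 2448 TPM in SyMSC 1, and the fibroblast surface gene Thy1 at 272 TPM in AdMSC 1, 811 TPM in PBS 1, 659.6 TPM in PBS 2 and 178 TPM in SyMSC 1. The keratin gene Krt5 of skin was listed at 0 in AdMSC 1, PBS 1 and PBS 2, and Col2a1, the main collagen of cartilage, stayed between 0.53 and 2.5 TPM in the 4 libraries. Other genes of bordering tissue were present. Acta1 of skeletal muscle was at 663 TPM in PBS 1 and 45.1 TPM in AdMSC 1, and Acan of cartilage at 47.4 and 15.2 TPM.

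The largest ratios on the higher side belonged to genes of neutrophils and of acute inflammation. Csf3r (gene ID 298518), the receptor for granulocyte colony-stimulating factor, stood at 418 TPM in AdMSC 1, 4.73 TPM in PBS 1, 11.7 TPM in PBS 2 and 538 TPM in SyMSC 1, a ratio of 6.19. Both PBS libraries were low and the libraries of cell-injected tissue were high. Cxcl2 (gene ID 114105), a neutrophil chemoattractant, was at 86.8 TPM in AdMSC 1, 0.23 TPM in PBS 1, 4.65 TPM in PBS 2 and 316 TPM in SyMSC 1 (6.16). Nos2 (gene ID 24599), the inducible nitric oxide synthase, was at 81.9 TPM in AdMSC 1, 0.48 TPM in PBS 1, 1.48 TPM in PBS 2 and 234 TPM in SyMSC 1 (5.81). Spp1 (gene ID 25353) was at 10022 TPM in AdMSC 1, 207 TPM in PBS 1, 193 TPM in PBS 2 and 6402 TPM in SyMSC 1 (5.59). For Spp1 the PBS libraries were close to each other, while for Cxcl2 PBS 2 was above PBS 1 and the ratio to PBS 2 was 3.96.

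Other genes among the 15 highest were Stfa2 (6.31), Il1r2 (6.0), Mcemp1 (5.96), Cxcl3 (5.95), Cxcr2 (5.91), Oscar (5.03), Niacr1 (4.91), Clec4e (4.87), Osm (4.82) and Ifit1bl (4.76), given as log2 ratios. Il1r2 encodes the decoy receptor of interleukin 1, Cxcr2 the receptor of the CXC chemokines named above, Oscar an activating receptor of myeloid cells and osteoclasts, and Clec4e the lectin receptor Mincle. Stfa2 encodes a stefin, an inhibitor of cysteine proteases. Its relative Stfa2l2 was listed at 0 in PBS 1 and at 42.95 TPM in AdMSC 1, with 2.19 TPM in PBS 2. Stfa2, Stfa2l2 and Ifit1bl have near-identical copies that may share reads, which makes their levels uncertain.

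On the lower side the largest ratios belonged to tendon-like matrix, fast muscle and stromal genes. Kera (gene ID 314771), the matrix proteoglycan keratocan, was at 0.46 TPM in AdMSC 1, 118 TPM in PBS 1, 20.4 TPM in PBS 2 and 1.93 TPM in SyMSC 1 (-6.35). Tnmd (gene ID 64104), the tendon membrane protein tenomodulin, was at 0.96 TPM in AdMSC 1, 117 TPM in PBS 1, 61.2 TPM in PBS 2 and 1.24 TPM in SyMSC 1 (-5.91). Ccl21, a chemokine that guides lymphocytes and dendritic cells into lymphatic vessels, was at 5.75 TPM in AdMSC 1, 204 TPM in PBS 1, 427 TPM in PBS 2 and 49.3 TPM in SyMSC 1 (-4.92). PBS 1 was the highest library for Kera and Tnmd, and PBS 2 for Ccl21. Against PBS 2 the ratios were -3.88 for Kera, -4.99 for Tnmd and -5.99 for Ccl21.

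Of the remaining genes among the 15 lowest, Myh4 (-5.61), Pvalb (-4.72), Mylpf (-4.43), Mybpc2 (-4.41), Myl1 (-4.36) and Actn3 (-4.23) encode proteins of fast skeletal muscle. C1qtnf3 (-5.15), Angptl1 (-4.85) and Chad (-4.79) encode secreted proteins of connective tissue and cartilage, Cldn11 (-4.97) a tight junction protein, Mlana (-4.44) a melanosome protein and Capn6 (-4.35) a calpain-family protein. Cldn11, Angptl1 and Mlana were nearly equal in both PBS libraries or higher in PBS 2. Myh4, by contrast, was at 74.96 TPM in PBS 1 and 6.67 TPM in PBS 2, so its ratio was -2.3 against PBS 2.

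**Figure D2:**
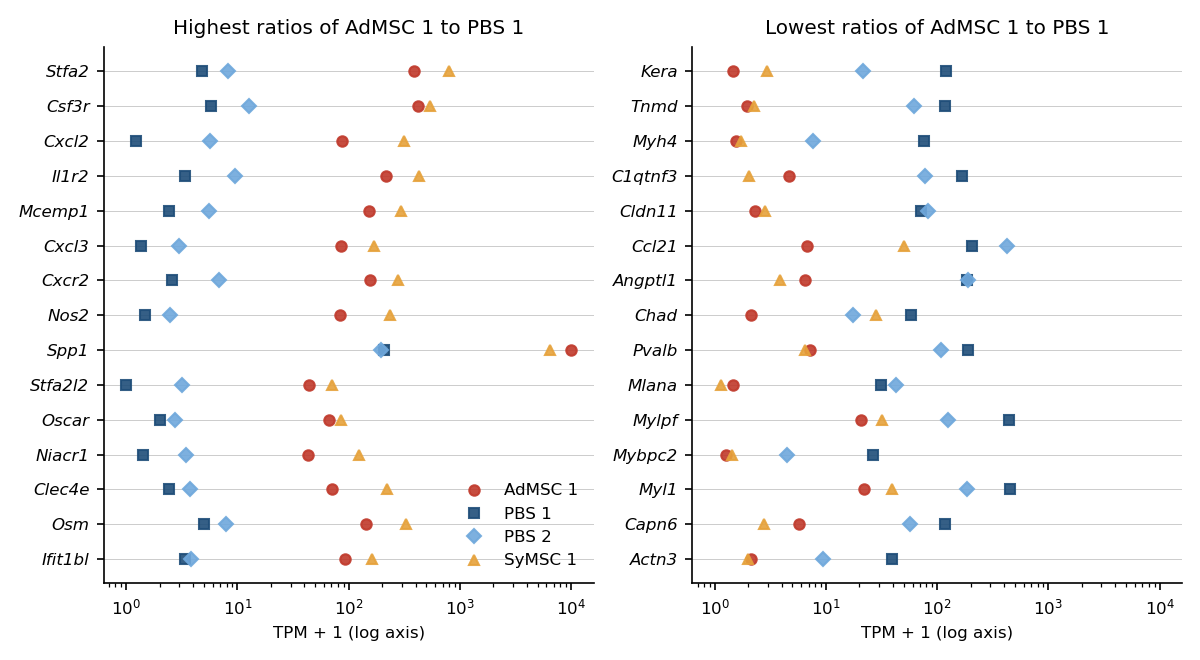
TPM + 1 (log axis) in each of the 4 libraries for the 15 highest and 15 lowest ratios of AdMSC 1 to PBS 1 among genes that also lie past 2-fold of PBS 2. Squares and diamonds (PBS) sit at the left for the first set and at the right for the second; for Chad SyMSC 1 lies among them, and for Kera, Myh4 and Mybpc2 the PBS libraries lie far apart, 118 and 20.4 TPM for Kera.

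Some genes were listed at 0 on 1 side, for which no ratio to 0 is given. 8 genes at 5 TPM or more in PBS 1 were listed at 0 in AdMSC 1, among them Casp6, Mmp11 and Natd1, and 3 of the 8 were at 0 in PBS 2 too. In the other direction 17 genes at 5 TPM or more in AdMSC 1 were listed at 0 in PBS 1, of which 5 were at 0 in PBS 2 as well. The kinase gene Pak2 and the mitochondrial gene Romo1, which most cells use, are among these 17, so a listed 0 may be a failed estimate.

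Among leukocyte genes, those of mature neutrophils were far higher in AdMSC 1, while some granule genes were not. Of 21 genes of the neutrophil list at the floor, 16 were higher and 3 lower than in PBS 1, with a median of 2.81. Over all 25 listed genes in the table the median was 2.51. All 16 also lay past 2-fold above PBS 2, and 0 of the 3 lower genes were past 2-fold below it. Summed over the list the level was 3190.1 TPM in AdMSC 1, 486 TPM in PBS 1, 222 TPM in PBS 2 and 5998 TPM in SyMSC 1. S100a9 and S100a8 are the calprotectin subunits of neutrophils and monocytes. S100a9 was at 845 TPM in AdMSC 1, 96.7 TPM in PBS 1, 27.8 TPM in PBS 2 and 1521 TPM in SyMSC 1 (3.11), and S100a8 at 628 TPM in AdMSC 1, 109 TPM in PBS 1, 30.7 TPM in PBS 2 and 1149 TPM in SyMSC 1 (2.51). PBS 2 was the lowest library for both, and against it the ratios were 4.88 and 4.31.

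Trem1, an amplifying receptor of myeloid cells, was lower in both PBS libraries, at 185 TPM in AdMSC 1, 25.5 TPM in PBS 1, 26.1 TPM in PBS 2 and 208 TPM in SyMSC 1 (2.81). The granule genes Pglyrp1 (1.49), Lcn2 (1.17), Mmp8 (1.0) and Mmp9 (0.27) had smaller ratios. Other granule genes lay on the other side of PBS 1. Mpo, myeloperoxidase, was at 1.98 TPM in AdMSC 1, 16.8 TPM in PBS 1, 4.47 TPM in PBS 2 and 9.23 TPM in SyMSC 1 (-2.58), Camp, cathelicidin, at 3.92 TPM in AdMSC 1, 24.4 TPM in PBS 1, 4 TPM in PBS 2 and 14.2 TPM in SyMSC 1 (-2.37), and Ngp at 10.6 TPM in AdMSC 1, 80.8 TPM in PBS 1, 5.97 TPM in PBS 2 and 32.3 TPM in SyMSC 1 (-2.82). Elane, neutrophil elastase, had 11.6 TPM in PBS 1, 8.31 in AdMSC 1 and 1.88 in PBS 2 (-0.43, and 1.69 over PBS 2). PBS 1 was the highest library for Mpo, Camp and Ngp, and PBS 2 was close to AdMSC 1 for Camp (ratio to PBS 2 -0.02) and below it for Ngp (0.73). Of the listed genes under the floor, Cxcr1, Fpr1, Fpr2 and Ltf, the lactoferrin gene Ltf was listed at 0 in AdMSC 1 and both PBS libraries.

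**Figure D3:**
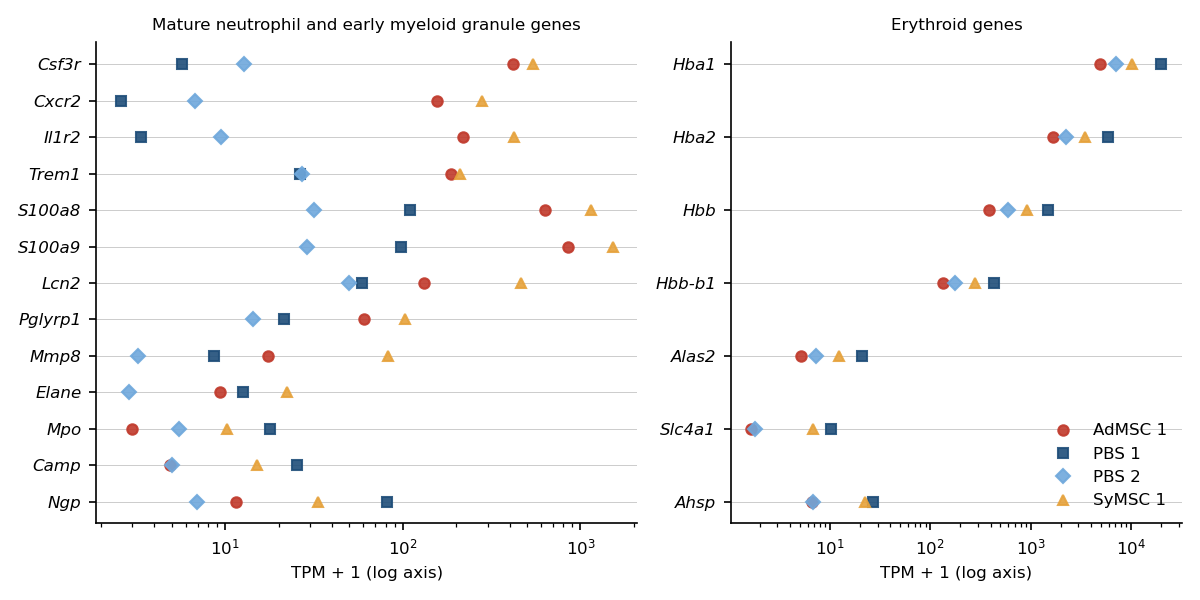
TPM + 1 (log axis) in each library for neutrophil genes, from mature surface genes at the top to granule genes at the bottom, and for erythroid genes. Csf3r to Lcn2 are higher in AdMSC 1 than in both PBS libraries, whereas Mpo, Camp and Ngp and all erythroid genes shown are highest in PBS 1.

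Genes of monocytes and macrophages were higher in AdMSC 1 almost throughout. 20 of 22 were higher and 0 lower, with a median of 1.89, and the same 20 lay past 2-fold of PBS 2. The summed level was 34489 TPM in AdMSC 1, 12269 TPM in PBS 1, 13549 TPM in PBS 2 and 44207 TPM in SyMSC 1. Ccr1, a chemokine receptor, was at 84.2 TPM in AdMSC 1, 4.28 TPM in PBS 1, 7.41 TPM in PBS 2 and 143 TPM in SyMSC 1 (4.01). Fcgr1a, the high-affinity IgG receptor, was at 414 TPM in AdMSC 1, 63.4 TPM in PBS 1, 76.7 TPM in PBS 2 and 633 TPM in SyMSC 1 (2.69). Csf1r, the growth factor receptor that macrophages need to live, was at 406 TPM in AdMSC 1, 157 TPM in PBS 1, 196 TPM in PBS 2 and 462 TPM in SyMSC 1 (1.37). Itgam (2.83), a subunit of the complement receptor Mac-1, Lcp1 (2.79), the actin bundler plastin 2, and Msr1 (2.72), a scavenger receptor, lay between them. The members past neither threshold were Ctss (0.59), a lysosomal protease, and Adgre1 (-0.17), the F4/80 antigen.

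Within macrophage genes, those of lipid loading and repair were split. Of 20 genes of the lipid-associated macrophage list, 11 were higher and 3 lower than in PBS 1 (median 1.07), and 7 were higher than both PBS libraries (median over PBS 2 0.76). Gpnmb (gene ID 113955), a lysosomal glycoprotein of macrophages, was at 4565 TPM in AdMSC 1, 424 TPM in PBS 1, 367 TPM in PBS 2 and 4273 TPM in SyMSC 1 (3.42). Fabp5, a fatty acid carrier, was at 1299.7 TPM in AdMSC 1, 121 TPM in PBS 1, 117 TPM in PBS 2 and 1287 TPM in SyMSC 1 (3.42). Plin2 (2.73), which coats lipid droplets, and Olr1 (2.67), the receptor of oxidised lipoprotein, were also higher. Apoe and Trem2 passed 2-fold of PBS 1 (1.09 and 1.05) but not of PBS 2 (0.7 and 0.77), since PBS 2 lay above PBS 1. The lower members, Fabp4 (-1.37), Cd36 (-1.14) and Cd9 (-1.57), are also made by fat and vessel cells.

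Genes of resident synovial macrophages did not move as 1 group. 6 of 18 were higher, 3 lower and 9 neither (median -0.39, and -0.78 over PBS 2). Past both PBS libraries 3 were higher and 3 lower, and the count of higher genes was also 3 against PBS 2 alone. Folr2, Mertk and Trem2 passed 2-fold of PBS 1 only. Cx3cr1, the fractalkine receptor, was at 92.7 TPM in AdMSC 1, 4.4 TPM in PBS 1, 7.15 TPM in PBS 2 and 68.9 TPM in SyMSC 1 (4.12). Mrc1, the mannose receptor, was at 104 TPM in AdMSC 1, 41.5 TPM in PBS 1, 51.2 TPM in PBS 2 and 113 TPM in SyMSC 1 (1.31), and the hemoglobin scavenger receptor Cd163 at 9.55 TPM in AdMSC 1, 13.4 TPM in PBS 1, 19.7 TPM in PBS 2 and 11.4 TPM in SyMSC 1 (-0.45). Vsig4 (-0.52), Lyve1 (-0.49) and the complement genes C1qa (-0.33) and C1qc (-0.69) lay below equality without passing 2-fold. Timd4 (-1.01), a receptor of resident macrophages for dying cells, Selenop (-1.34), which encodes a selenium carrier, and Gas6 (-1.61), the ligand of the receptors Axl and Mertk, were lower.

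Lymphocyte genes were sparse. 9 of the 20 measured T and NK cell genes were at the floor, 4 of them higher and 1 lower (median 0.95). Over all 20 the median was 0.53. Cd8a (gene ID 24930) was at 109 TPM in AdMSC 1, 4.19 TPM in PBS 1, 4.72 TPM in PBS 2 and 126 TPM in SyMSC 1 (4.41), and its partner Cd8b had a ratio of 3.13. Cd2 (2.97) came next, whereas Cd4 was at 119 TPM in AdMSC 1, 174 TPM in PBS 1, 205 TPM in PBS 2 and 125 TPM in SyMSC 1 (-0.55). Which cells carried Cd8a, Cd8b and Cd2 was not tested. T cell receptor genes were much lower in level, with Cd3e at 9.33 TPM in AdMSC 1, 4.36 TPM in PBS 1, 6.24 TPM in PBS 2 and 11.1 TPM in SyMSC 1 (0.95) and Cd3g at 11.4 TPM in AdMSC 1, 6.51 TPM in PBS 1, 5.2 TPM in PBS 2 and 18.7 TPM in SyMSC 1 (0.73). Cd8a therefore stood near the level of Cd2 (86.6 TPM in AdMSC 1, 10.2 in PBS 1) and about an order of magnitude above the Cd3 genes of the same library, in TPM, which is per length. Gzma, Gzmb and Prf1, which encode killing proteins, were under the floor in every library, and Nkg7 was lower (-1.42), with PBS 2 at 3.56 TPM and AdMSC 1 at 3.17 TPM. Of 5 B and plasma cell genes at the floor, 1 was higher, the adaptor gene Blnk (1.95), which macrophages also express, and 0 were lower.

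Among antigen presentation genes, the peptide loading genes of class II were higher, while the class II chain genes and most class I genes were within 2-fold. Of 11 dendritic cell and MHC class II genes, 4 were higher and 0 lower (median 0.64), and 3 were higher than both PBS libraries. The 4 were the costimulator Cd86 (2.31, and 0.94 against PBS 2), the peptide loading genes RT1-DMa (1.87) and RT1-DMb (1.7), and the integrin Itgax (1.54). The 7 other members, among them the genes of the class II chains themselves, were within 2-fold. Of 16 genes of MHC class I and antigen processing, 0 were higher and 2 lower (median 0.28), beside 11.1% and 12.3% of all genes. The lower ones were RT1-T24-4 (-1.34) and RT1-S3 (-1.04, and -0.58 against PBS 2). B2m, the light chain of class I molecules, was at 2012 TPM in AdMSC 1, 1539 TPM in PBS 1, 2112 TPM in PBS 2 and 2749 TPM in SyMSC 1 (0.39). RT1 genes are near-identical copies, so their levels are uncertain.

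Mast cell and red cell genes held more lower than higher members. Of 5 mast cell genes, 0 were higher and 2 lower (median -0.92), Gata2 (-1.8), a transcription factor shared with vessels, and the tryptase gene Tpsab1 (-1.05). Against PBS 2, 4 of the 5 were lower (median -1.36), with the chymase gene Cma1 (-1.36) and the tryptase gene Tpsb2 (-1.32) added. Of 10 erythroid and platelet genes, 8 were lower than in PBS 1 and 0 were past 2-fold of both PBS libraries. Hba1, the alpha chain of hemoglobin, was at 4918 TPM in AdMSC 1, 20161 TPM in PBS 1, 7064 TPM in PBS 2 and 10295 TPM in SyMSC 1 (-2.04). Alas2, the first enzyme of red cell heme synthesis, was at 4.15 TPM in AdMSC 1, 20.01 TPM in PBS 1, 6.22 TPM in PBS 2 and 11.4 TPM in SyMSC 1 (-2.03). PBS 1 was the highest library for both, and the list's median of -1.99 became -0.42 over PBS 2. LOC689064, a beta-globin gene, was counted as higher (6.0) because PBS 1 had 0.12 TPM, and it was lower than in PBS 2 (-0.64). The platelet chemokine gene Pf4 was at 53.4 TPM in AdMSC 1, 46.98 TPM in PBS 1, 54.2 TPM in PBS 2 and 80.4 TPM in SyMSC 1 (0.18).

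Genes of the acute cytokine list were mostly higher in AdMSC 1. Besides cytokines this list holds enzymes and binding proteins, among them Nos2, Arg1, Ptgs2, Ptges and Tnfaip6. Of 15 at the floor, 11 were higher and 2 lower (median 2.66), with the same counts past both PBS libraries. Among the higher members Il1b, Il6, Osm, Nos2, Ptgs2 and Ccl20 were under the floor in PBS 1 and entered through AdMSC 1. That entry favours the higher side, and over all 20 listed genes in the table the median was 1.73. Il1b (gene ID 24494), interleukin 1 beta, was at 59.8 TPM in AdMSC 1, 3.67 TPM in PBS 1, 5.98 TPM in PBS 2 and 176 TPM in SyMSC 1 (3.7). Il6 was at 27.3 TPM in AdMSC 1, 1.06 TPM in PBS 1, 1.67 TPM in PBS 2 and 58.4 TPM in SyMSC 1 (3.78), and Osm, of the same cytokine family, at 141 TPM in AdMSC 1, 4.05 TPM in PBS 1, 6.91 TPM in PBS 2 and 329 TPM in SyMSC 1 (4.82). All 3 were below 7 TPM in each PBS library. Regulators of the same axis were higher too. Il1rn, which encodes the interleukin 1 receptor antagonist, was at 78.97 TPM in AdMSC 1, 5.13 TPM in PBS 1, 6.78 TPM in PBS 2 and 149 TPM in SyMSC 1 (3.71). Arg1, the arginase that competes with Nos2 for arginine, was at 141 TPM in AdMSC 1, 6.66 TPM in PBS 1, 6.22 TPM in PBS 2 and 128 TPM in SyMSC 1 (4.22). Tnfaip6, the hyaluronan-binding protein TSG-6, was at 159 TPM in AdMSC 1, 42.4 TPM in PBS 1, 39.2 TPM in PBS 2 and 115 TPM in SyMSC 1 (1.88). Ptgs2 (2.68), the inducible cyclooxygenase, was higher, whereas Ptges (-1.03), which makes prostaglandin E, and Il33 (-1.56), an alarmin of stromal and vessel cells, were lower. Tnf was listed at 0 in AdMSC 1 and reached 1.4 TPM in PBS 1 and 2.41 TPM in PBS 2, and Il10 was at 0.83 TPM in AdMSC 1 and listed at 0 in PBS 1, all under the floor. Csf3, the ligand of Csf3r, did not exceed 0.34 TPM in any library.

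CXC chemokines parted into the ligands of Cxcr2, which were higher, and other ligands, most of which were lower or level. Of 10 at the floor, 5 were higher and 3 lower than in PBS 1 (median 0.82). Cxcl1, Cxcl2, Cxcl3 and Cxcl6 were under the floor in PBS 1 and entered through AdMSC 1, which favours the higher side. Over all 13 listed genes in the table the median was 0.0009. Cxcl3 was at 83.97 TPM in AdMSC 1, 0.37 TPM in PBS 1, 1.99 TPM in PBS 2 and 166 TPM in SyMSC 1 (5.95), Cxcl1 at 45.5 TPM in AdMSC 1, 1.13 TPM in PBS 1, 4.87 TPM in PBS 2 and 74.5 TPM in SyMSC 1 (4.45) and Cxcl6 at 28.3 TPM in AdMSC 1, 1.15 TPM in PBS 1, 1.19 TPM in PBS 2 and 91.7 TPM in SyMSC 1 (3.77). Cxcl13, which attracts B cells, was at 248.5 TPM in AdMSC 1, 95.7 TPM in PBS 1, 131 TPM in PBS 2 and 247 TPM in SyMSC 1 (1.37). Against PBS 2 the ratios of these 4 genes were 4.83, 2.99, 3.74 and 0.92. Ligands of Cxcr3, which attract activated T cells, were on the lower side. Cxcl9 was at 7.76 TPM in AdMSC 1, 72.3 TPM in PBS 1, 59.6 TPM in PBS 2 and 7.46 TPM in SyMSC 1 (-3.06), lower than both PBS libraries. Cxcl10 was at 5.3 TPM in AdMSC 1, 50.3 TPM in PBS 1, 8.16 TPM in PBS 2 and 7.1 TPM in SyMSC 1 (-3.03), and -0.54 against PBS 2. Cxcl12, a stromal ligand that holds leukocytes in tissue and marrow, was at 42.5 TPM in AdMSC 1, 210.1 TPM in PBS 1, 235 TPM in PBS 2 and 29.8 TPM in SyMSC 1 (-2.28).

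Among 13 genes of the CC chemokine list, which also holds the fractalkine gene Cx3cl1, 5 were higher and 4 lower (median 0.47). The counts were again the same past both PBS libraries. Ccl2 (gene ID 24770), the main attractant of monocytes, was at 442 TPM in AdMSC 1, 86.5 TPM in PBS 1, 70.9 TPM in PBS 2 and 482 TPM in SyMSC 1 (2.34), and Ccl3 at 179 TPM in AdMSC 1, 12.2 TPM in PBS 1, 30.7 TPM in PBS 2 and 696 TPM in SyMSC 1 (3.77). Ccl20 (2.66), Ccl6 (2.52) and Ccl7 (2.02) were also higher. The eosinophil attractants Ccl11 (-2.43) and Ccl24 (-2.18), the fractalkine gene Cx3cl1 (-1.77) and Ccl21 were lower, so that Cx3cr1 and its ligand lay on opposite sides.

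Promoters of the Cxcr2 ligands Cxcl1, Cxcl2 and Cxcl6 are shown, without that of Cxcl3, because these genes lay far above both PBS libraries together. They were searched on both strands for GGNNTTTCC, part of the site that NF-kB binds, in 300 bases around the start site as RefSeq gives it in the build GRCr8. The 250 bases before the start are printed 5′ to 3′ along the gene, with matches in capitals, for Cxcl1 (chr14:17479322-17479571, minus strand), Cxcl2 (chr14:17467256-17467505, minus strand) and Cxcl6 (chr14:17596418-17596667, minus strand).
Cxcl1: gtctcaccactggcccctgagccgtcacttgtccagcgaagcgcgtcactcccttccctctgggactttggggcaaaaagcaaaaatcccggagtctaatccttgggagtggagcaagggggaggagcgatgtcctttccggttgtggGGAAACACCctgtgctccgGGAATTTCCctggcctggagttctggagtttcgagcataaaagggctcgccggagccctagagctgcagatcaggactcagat
Cxcl2: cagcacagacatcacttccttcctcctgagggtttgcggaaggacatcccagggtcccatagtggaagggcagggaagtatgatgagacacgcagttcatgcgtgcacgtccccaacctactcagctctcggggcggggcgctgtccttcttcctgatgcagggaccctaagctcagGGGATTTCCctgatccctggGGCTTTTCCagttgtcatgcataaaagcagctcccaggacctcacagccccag
Cxcl6: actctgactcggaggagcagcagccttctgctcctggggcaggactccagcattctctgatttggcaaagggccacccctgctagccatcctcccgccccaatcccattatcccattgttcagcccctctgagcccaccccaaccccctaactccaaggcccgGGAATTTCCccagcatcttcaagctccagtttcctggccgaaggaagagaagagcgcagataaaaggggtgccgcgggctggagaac

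In Cxcl1 the matches begin 102 bases (on the opposite strand) and 83 bases before the start, in Cxcl2 73 and 53 bases, and in Cxcl6 87 bases. These letters occur in 6.03% of all 27457 promoters of the table, 6.41% of the 8669 promoters of genes at the floor, 7.56% of those of higher genes and 5.64% of those of lower genes. In the CXC chemokine list 6 of 12 promoters held a match, including genes that were lower or under the floor, and in the list of NF-kB subunits and feedback genes 8 of 16. A match describes letters in this window and not binding.

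NF-kB genes themselves were mostly within 2-fold, as were 8306 of all 10839 genes. Of 18 subunit and feedback genes, 5 were higher and 0 lower (median 0.61), beside 11.1% and 12.3% of all genes. Of the 5, 3 were higher than both PBS libraries. Rel, an NF-kB subunit of leukocytes, was at 10.1 TPM in AdMSC 1, 2.74 TPM in PBS 1, 2.53 TPM in PBS 2 and 13.1 TPM in SyMSC 1 (1.57). Sod2, the mitochondrial superoxide dismutase that NF-kB induces, was at 301 TPM in AdMSC 1, 109 TPM in PBS 1, 90.4 TPM in PBS 2 and 383 TPM in SyMSC 1 (1.46), and the survival gene Birc3 at 19.8 TPM in AdMSC 1, 7.24 TPM in PBS 1, 6.08 TPM in PBS 2 and 33.4 TPM in SyMSC 1 (1.33). Nfkbiz had a ratio of 1.31, and 0.71 over PBS 2. The inhibitor genes Nfkbia (0.37) and Tnfaip3 (0.78) and the subunit gene Rela (-0.01) were within 2-fold, as were Icam1 (-0.35) and Traf1 (-0.71), which lay below equality.

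Early response transcription factors differed between the PBS libraries too. Of 19, 5 were higher and 1 lower (median 0.29), and 3 and 1 were past both PBS libraries, with a median of -0.28 over PBS 2 and of 0.38 for PBS 2 over PBS 1. Fosl1 was at 15.9 TPM in AdMSC 1, 2.06 TPM in PBS 1, 0.74 TPM in PBS 2 and 12.8 TPM in SyMSC 1 (2.47) and Junb at 562 TPM in AdMSC 1, 171 TPM in PBS 1, 248 TPM in PBS 2 and 969 TPM in SyMSC 1 (1.71). Fos, which handling of tissue can induce within minutes, was at 278 TPM in AdMSC 1, 180.2 TPM in PBS 1, 522 TPM in PBS 2 and 635 TPM in SyMSC 1 (0.62), so AdMSC 1 lay between the PBS libraries. Ier2 passed 2-fold of PBS 1 (1.29) but not of PBS 2 (0.64). The nuclear receptor Nr4a1 was lower (-1.22).

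Interferon response genes were mostly level with PBS 2, and in part lower than in PBS 1. Of 27, 4 were higher and 10 lower than in PBS 1 (median -0.80), and 4 were higher and 3 lower than both PBS libraries (median over PBS 2 -0.05, and of PBS 2 over PBS 1 -0.56). Mx2, an antiviral GTPase, was at 3.48 TPM in AdMSC 1, 27.5 TPM in PBS 1, 10.2 TPM in PBS 2 and 3.77 TPM in SyMSC 1 (-2.67). Mx1 was at 4.79 TPM in AdMSC 1, 21.3 TPM in PBS 1, 5 TPM in PBS 2 and 7.35 TPM in SyMSC 1 (-1.95), equal to PBS 2 within 1 TPM. Ifit3 was at 117 TPM in AdMSC 1, 30.2 TPM in PBS 1, 13.99 TPM in PBS 2 and 345 TPM in SyMSC 1 (1.92) and Ifit1 at 15.5 TPM in AdMSC 1, 0.15 TPM in PBS 1, 1.08 TPM in PBS 2 and 38.1 TPM in SyMSC 1 (3.84). Ifit and Oas genes belong to families with similar copies, so their levels are uncertain. The transcription factors Stat2 (0.09) and Irf9 (-0.18), which carry the interferon signal, were within 2-fold.

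Complement genes lay on both sides. Of 19, 3 were higher and 7 lower (median -0.42), and 2 and 6 were past both PBS libraries. Receptors of the peptides C3a and C5a were higher, with C3ar1 at 108 TPM in AdMSC 1, 21.8 TPM in PBS 1, 22.1 TPM in PBS 2 and 80.3 TPM in SyMSC 1 (2.26) and C5ar1 at 391.6 TPM in AdMSC 1, 115 TPM in PBS 1, 118 TPM in PBS 2 and 391 TPM in SyMSC 1 (1.76). Of the classical pathway, C1r (-1.01), C1s, C4b and Serping1 were lower, while C1qa (-0.33), C1qb (-0.42), C1qc (-0.69) and C2 (-0.25) were within 2-fold. C1s, a protease, was at 138 TPM in AdMSC 1, 564 TPM in PBS 1, 559 TPM in PBS 2 and 109 TPM in SyMSC 1 (-2.02), C4b at 62.8 TPM in AdMSC 1, 221 TPM in PBS 1, 379.7 TPM in PBS 2 and 45.3 TPM in SyMSC 1 (-1.8), and Serping1, the C1 inhibitor, at 443 TPM in AdMSC 1, 1656 TPM in PBS 1, 1933 TPM in PBS 2 and 286 TPM in SyMSC 1 (-1.9).

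Genes of glycolysis and the hypoxia response were higher across the pathway, from glucose entry to lactate export. 20 of 24 were higher and 0 lower (median 1.52), with the same count past both PBS libraries (median over PBS 2 1.49). Slc2a1, the glucose transporter GLUT1, was at 196 TPM in AdMSC 1, 18.9 TPM in PBS 1, 18.01 TPM in PBS 2 and 226 TPM in SyMSC 1 (3.31). Pfkfb3, which makes the activator of phosphofructokinase, was at 109 TPM in AdMSC 1, 11.8 TPM in PBS 1, 13.9 TPM in PBS 2 and 145 TPM in SyMSC 1 (3.11). Slc16a3, which exports lactate, was at 186 TPM in AdMSC 1, 11.9 TPM in PBS 1, 8.37 TPM in PBS 2 and 319 TPM in SyMSC 1 (3.85). Both PBS libraries were low and close to each other for these transporters and this enzyme. The abundant enzymes Gpi, Aldoa, Tpi1, Gapdh, Pgk1, Pgam1, Eno1, Pkm and Ldha had smaller ratios, from 0.94 for Gpi to 1.74 for Pgk1, with Eno1 at 2609 TPM in AdMSC 1 and 823 TPM in PBS 1. Egln3 (3.14), an oxygen sensor that hypoxia induces, and Vegfa (1.8), the vessel growth factor, were higher too. The isoforms Hk1 (0.31) and Pfkp (0.19) were within 2-fold, whereas Hk2 (2.06) and Pfkl (1.51) were higher. Gapdh was at 8743 TPM in AdMSC 1, 4073 TPM in PBS 1, 3367 TPM in PBS 2 and 7691 TPM in SyMSC 1 (1.1), and it is also 1 of 15 reference genes.

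The promoter of Ldha, the muscle-type subunit of lactate dehydrogenase (983 TPM in AdMSC 1, 310.3 TPM in PBS 1, 257 TPM in PBS 2 and 1012 TPM in SyMSC 1, ratio 1.66), is shown as an example of this group. It was searched for ACGTG, the core of the hypoxia response element, on both strands (GRCr8, chr1:106507842-106508091, plus strand, 250 bases before the start, matches in capitals).
Ldha: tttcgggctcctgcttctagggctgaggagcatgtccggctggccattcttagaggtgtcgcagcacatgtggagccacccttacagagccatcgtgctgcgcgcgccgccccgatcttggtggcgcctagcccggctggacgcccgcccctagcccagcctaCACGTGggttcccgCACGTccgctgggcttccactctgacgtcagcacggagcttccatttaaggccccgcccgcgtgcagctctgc

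The first run of capitals holds the letters on both strands, beginning 87 and 86 bases before the start, and the other match begins at 73 bases. ACGTG occurred in 9 of 22 promoters of this list (40.9%), against 26.3% of promoters of genes at the floor and 19.7% of all promoters in the table. Among higher genes the share was 25.2% and among lower genes 17.6%. In the DNA replication list it was 41.2%, so the share is not particular to glycolysis genes.

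Mitochondrial respiration genes stayed within 2-fold with 1 exception. Of 23 respiratory chain genes, 1 was higher, the cytochrome c gene Cycs (1.07), and 0 were lower (median 0.39). Atp5f1b, a subunit of ATP synthase, was at 666 TPM in AdMSC 1, 443 TPM in PBS 1, 431 TPM in PBS 2 and 594 TPM in SyMSC 1 (0.59).

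Genes that handle heme and metals, and some redox genes, were higher. Of 15, 8 were higher and 1 lower (median 1.24), also past both PBS libraries. Hmox1 (gene ID 24451), heme oxygenase, which breaks down heme, was at 1100.0 TPM in AdMSC 1, 77.2 TPM in PBS 1, 85.9 TPM in PBS 2 and 809 TPM in SyMSC 1 (3.82). The metallothionein genes Mt1 (2.25) and Mt2A (2.59), which bind zinc and copper, and the ferritin heavy chain Fth1 (1.52) were higher. Tfrc, which imports iron, was at 31.3 TPM in AdMSC 1, 7.52 TPM in PBS 1, 5.6 TPM in PBS 2 and 26.1 TPM in SyMSC 1 (1.92), and Slc40a1, ferroportin, the exporter of iron, at 7.2 TPM in AdMSC 1, 56.9 TPM in PBS 1, 25.6 TPM in PBS 2 and 5.68 TPM in SyMSC 1 (-2.82). The import gene thus lay above and the export gene below both PBS libraries.

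Some lysosomal genes were higher. 9 of 25 were higher and 1 lower (median 0.56), with 6 higher than both PBS libraries. Ctsz, a cathepsin, was at 782 TPM in AdMSC 1, 142 TPM in PBS 1, 157 TPM in PBS 2 and 838 TPM in SyMSC 1 (2.45), and Atp6v1b2, a subunit of the proton pump, at 196 TPM in AdMSC 1, 40.97 TPM in PBS 1, 39.5 TPM in PBS 2 and 214 TPM in SyMSC 1 (2.23). The pump subunits Atp6v0c (1.44) and Atp6v1a (1.36) followed. Ctsk, the collagen-degrading cathepsin of osteoclasts and fibroblasts, was the lower member at 95.8 TPM in AdMSC 1, 572 TPM in PBS 1, 477 TPM in PBS 2 and 60.2 TPM in SyMSC 1 (-2.57).

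Most members of the stress lists were within 2-fold, as were 8306 of all 10839 genes. The counts were 11 of 15 for the integrated stress response and 11 of 18 for heat shock proteins. Neither share exceeded that of all genes. Of 15 genes of the integrated stress response, 3 were higher and 1 lower (median 0.57). They were Ddit4 (2.08), an inhibitor of mTORC1, the amino acid transporter Slc7a5 (1.58), the enzyme Shmt2 (1.22) and, on the lower side, the transcription factor Atf5 (-1.04). Of 18 heat shock protein genes, 2 were higher and 5 lower (median 0.33), beside 11.1% and 12.3% of all genes, and against PBS 2 the counts were 5 and 6. The mitochondrial chaperone Hspd1 (1.23) and Hsph1 (1.05) were higher, and the small heat shock proteins of muscle Hspb6 (-1.97), Hspb7 (-2.81) and Cryab (-2.09) were lower. Cytosolic ribosomal protein genes were nearly equal, with 23 of 24 within 2-fold (median -0.08). The exception Rps14 was at 393 TPM in AdMSC 1, 106 TPM in PBS 1, 556 TPM in PBS 2 and 391.7 TPM in SyMSC 1 (1.88), where PBS 1 was the library that stood apart (-0.5 against PBS 2).

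Of 15 genes often used as references, 12 were within 2-fold (median 0.22), a share close to the 8306 of all 10839 genes. Gapdh, Pgk1 and Hprt1 were past 2-fold. Hprt1, a purine salvage enzyme, was at 1.22 TPM in AdMSC 1, 26.1 TPM in PBS 1, 10.3 TPM in PBS 2 and 17.3 TPM in SyMSC 1 (-3.61), and AdMSC 1 was the lowest of the 4 libraries. Actb was at 5901 TPM in AdMSC 1, 3849 TPM in PBS 1, 3962 TPM in PBS 2 and 5219 TPM in SyMSC 1 (0.62), Ywhaz had a ratio of -0.07 and Tbp of -0.03.

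Most cell cycle genes were higher in AdMSC 1. Of 24 DNA replication genes, 20 were higher and 0 lower (median 1.33), and of 24 genes of mitosis, 19 were higher and 0 lower (median 1.37). The counts were the same past both PBS libraries, and the medians over PBS 2 were 1.57 and 1.78, since PBS 2 was lower than PBS 1 (-0.24 and -0.47). Mki67 (gene ID 291234), the proliferation antigen Ki-67, was at 41.5 TPM in AdMSC 1, 13.8 TPM in PBS 1, 8.12 TPM in PBS 2 and 33.4 TPM in SyMSC 1 (1.52). Rrm2, which makes deoxynucleotides, was at 108 TPM in AdMSC 1, 23.6 TPM in PBS 1, 14.1 TPM in PBS 2 and 86.2 TPM in SyMSC 1 (2.15), and Mcm5, a subunit of the replicative helicase, at 48.5 TPM in AdMSC 1, 10.4 TPM in PBS 1, 9.4 TPM in PBS 2 and 35.5 TPM in SyMSC 1 (2.12). Plk1 (1.78) and Cdk1 (1.71), kinases that drive mitosis, and Ube2c (1.69), which serves the anaphase complex, led the mitosis list.

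The promoter of Mcm6, another helicase subunit (48.6 TPM in AdMSC 1, 17.7 TPM in PBS 1, 15.7 TPM in PBS 2 and 36.01 TPM in SyMSC 1, ratio 1.41), is shown for TTTNGCGC, letters that E2F factors bind, searched on both strands (GRCr8, chr13:42404353-42404602, minus strand, 250 bases before the start, matches in capitals).
Mcm6: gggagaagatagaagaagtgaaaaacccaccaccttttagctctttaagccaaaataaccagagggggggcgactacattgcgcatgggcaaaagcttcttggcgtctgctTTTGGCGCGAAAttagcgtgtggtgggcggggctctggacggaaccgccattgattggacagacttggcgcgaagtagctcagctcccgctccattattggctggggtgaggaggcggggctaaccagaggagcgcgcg

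Its matches begin 139 bases and, on the opposite strand, 135 bases before the start and overlap each other. TTTNGCGC was found in 8 of 17 promoters of the DNA replication list (47.1%), 1 of 20 of the mitosis list and 1.37% of all promoters in the table. Among all higher genes the share was 3.13%, among lower genes 0.94% and among genes at the floor 2.32%. This motif was chosen after the gene values were seen.

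Among fibroblast genes, those of the lining parted and those of the sublining were lower. Of 16 lining genes, 4 were higher and 7 lower (median -0.14), the same counts as past both PBS libraries. Has2 (gene ID 25694), which makes hyaluronan, was at 44.6 TPM in AdMSC 1, 10.2 TPM in PBS 1, 9.31 TPM in PBS 2 and 33.2 TPM in SyMSC 1 (2.03), while its relative Has1 had a ratio of -0.19. Mmp3, stromelysin, was at 2605 TPM in AdMSC 1, 594 TPM in PBS 1, 550.0 TPM in PBS 2 and 2608 TPM in SyMSC 1 (2.13). Lining genes on the lower side included Htra4, a secreted protease, at 43.7 TPM in AdMSC 1, 513 TPM in PBS 1, 671 TPM in PBS 2 and 34.8 TPM in SyMSC 1 (-3.52), Clic5, a membrane and cytoskeletal protein, at 4.1 TPM in AdMSC 1, 63.3 TPM in PBS 1, 73.5 TPM in PBS 2 and 4.12 TPM in SyMSC 1 (-3.66), and the water channel Aqp1 at 164 TPM in AdMSC 1, 906 TPM in PBS 1, 818 TPM in PBS 2 and 99.8 TPM in SyMSC 1 (-2.46). Prg4 was nearly equal (0.09) and Fn1, fibronectin, had a ratio of -0.1. Prg4 and Has1 were thus level and Has2 higher, while Htra4 and Clic5 were lower by more than 8-fold.

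Sublining fibroblast genes held 0 higher and 18 lower of 24 (median -1.62, and -1.61 over PBS 2), and 16 were lower than both PBS libraries. Summed, they were at 14057 TPM in AdMSC 1, 41554 TPM in PBS 1, 35193 TPM in PBS 2 and 9847 TPM in SyMSC 1. Dpt, dermatopontin, was at 88.98 TPM in AdMSC 1, 726 TPM in PBS 1, 616 TPM in PBS 2 and 46.98 TPM in SyMSC 1 (-3.01), and Mfap4, a microfibril protein, at 358 TPM in AdMSC 1, 3079.8 TPM in PBS 1, 2872 TPM in PBS 2 and 140.4 TPM in SyMSC 1 (-3.1). Cilp (-3.67), Ogn (-3.27) and Clec3b (-3.23) were lower by similar sizes. Pdgfra, a receptor on most fibroblasts, had a ratio of -0.74, Dcn, decorin, of -0.9, and Pi16, of a perivascular fibroblast subset, of 0.34. The sublining list summed to 4.16% of all transcripts in PBS 1, 3.52% in PBS 2 and 1.41% in AdMSC 1, while the monocyte and macrophage list was at 1.23%, 1.35% and 3.45%. The part of the larger leukocyte share in the lower stromal values was not tested.

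**Figure D4:**
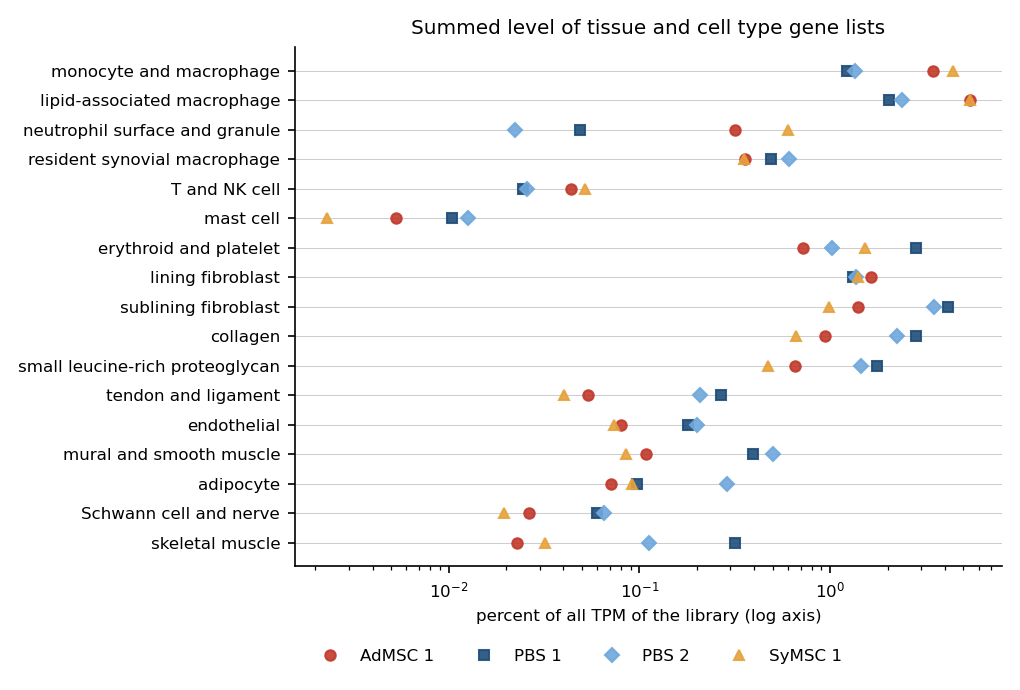
Percent of all TPM (log axis) held by each tissue and cell type gene list in the 4 libraries. Monocyte, neutrophil and T and NK cell lists are higher in AdMSC 1 than in both PBS libraries, although Cd4, of the last, is below both. Sublining, collagen, tendon, endothelial and mural lists are lower. Erythroid, adipocyte and skeletal muscle lists differ between PBS 1 and PBS 2.

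Most collagen genes were lower in AdMSC 1 than in PBS 1. Of 20 at the floor, 0 were higher and 13 lower (median -1.29), and 8 were lower than both PBS libraries, because PBS 2 was also below PBS 1 (median -0.36). Col1a1 (gene ID 29393) was at 3404 TPM in AdMSC 1, 12541 TPM in PBS 1, 8181 TPM in PBS 2 and 2257 TPM in SyMSC 1 (-1.88), and -1.26 over PBS 2. Col3a1 (gene ID 84032) was at 3824 TPM in AdMSC 1, 10509 TPM in PBS 1, 9810.3 TPM in PBS 2 and 2699.6 TPM in SyMSC 1 (-1.46). Col14a1 (-2.87), which lies on fibril surfaces, Col11a1 (-2.32) and the beaded-filament collagens Col6a3 (-2.02) and Col6a1 (-2.01) had the largest ratios. Basement membrane collagens were within 2-fold, Col4a1 -0.74 and Col4a2 -0.9, and Col5a3 was 0.55. No level of the second chain of type I collagen is given, since its row lay near 0 TPM in every library. Of 20 genes of collagen processing, 0 were higher and 6 lower (median -0.55). Sparc, a matrix glycoprotein that binds collagen, was at 3999 TPM in AdMSC 1, 14128 TPM in PBS 1, 12856 TPM in PBS 2 and 2914 TPM in SyMSC 1 (-1.82), and Pcolce, which aids removal of the propeptide, had a ratio of -1.6. The prolyl hydroxylase P4ha1 (0.87) and the lysyl oxidase Lox (0.04) were within 2-fold.

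Small leucine-rich proteoglycans, which bind collagen fibrils, were among the lowest lists. 11 of 12 were lower than in PBS 1 and 10 lower than both PBS libraries, with 0 higher (median -2.77). Fmod, fibromodulin, was at 68.4 TPM in AdMSC 1, 720.5 TPM in PBS 1, 571 TPM in PBS 2 and 45.9 TPM in SyMSC 1 (-3.38), Aspn, asporin, at 84.8 TPM in AdMSC 1, 629 TPM in PBS 1, 328 TPM in PBS 2 and 35.5 TPM in SyMSC 1 (-2.88), and Bgn, biglycan, at 1273 TPM in AdMSC 1, 4447 TPM in PBS 1, 3782 TPM in PBS 2 and 781 TPM in SyMSC 1 (-1.8). Dcn, decorin, was the member within 2-fold. Elastic fibre genes were lower in 8 of 17 (median -0.94), with Mfap2 at 46.1 TPM in AdMSC 1, 518 TPM in PBS 1, 619 TPM in PBS 2 and 25.5 TPM in SyMSC 1 (-3.46) and the elastin gene Eln at 88.1 TPM in AdMSC 1, 460.4 TPM in PBS 1, 563 TPM in PBS 2 and 39.1 TPM in SyMSC 1 (-2.37). Fbn1 (-0.09), the main fibrillin, and Fbln2 (-0.08) were level.

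Tendon and cartilage genes were low in AdMSC 1. Of 11 tendon and ligament genes, 9 were lower and 0 higher (median -3.38, and -3.04 over PBS 2). Comp, a matrix protein of cartilage and tendon, was at 81.6 TPM in AdMSC 1, 561 TPM in PBS 1, 649.8 TPM in PBS 2 and 49.5 TPM in SyMSC 1 (-2.77), Thbs4, a relative of it, at 162 TPM in AdMSC 1, 752 TPM in PBS 1, 399.8 TPM in PBS 2 and 76.2 TPM in SyMSC 1 (-2.21), and Scx, the tendon transcription factor scleraxis, at 4.92 TPM in AdMSC 1, 18.9 TPM in PBS 1, 12.8 TPM in PBS 2 and 3.05 TPM in SyMSC 1 (-1.75). Tnc (-0.15), tenascin C, was level. Of 10 cartilage and bone matrix genes at the floor, 8 were lower than in PBS 1 and 5 lower than both PBS libraries (median -1.72, and -1.07 over PBS 2). Acan, aggrecan, was at 15.2 TPM in AdMSC 1, 47.4 TPM in PBS 1, 25.2 TPM in PBS 2 and 6.59 TPM in SyMSC 1 (-1.58), and -0.7 over PBS 2, while Cytl1 was at 4.04 TPM in AdMSC 1, 75.2 TPM in PBS 1, 129 TPM in PBS 2 and 1.65 TPM in SyMSC 1 (-3.92). For Chad and Ucma, a secreted cartilage protein, SyMSC 1 did not lie with AdMSC 1, at 27.03 TPM beside 1.1 TPM for Chad and 9.62 TPM beside 1.04 TPM for Ucma.

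Metalloproteinases lay on both sides. Of 14, 5 were higher and 5 lower than in PBS 1 (median 0.27), and 5 and 4 were past both PBS libraries. Against PBS 2 alone 7 were higher and 4 lower (median 0.745). Mmp13 (gene ID 171052), which cleaves type II collagen, was at 118 TPM in AdMSC 1, 22.4 TPM in PBS 1, 10.97 TPM in PBS 2 and 174 TPM in SyMSC 1 (2.35), and Mmp10 at 174 TPM in AdMSC 1, 41.1 TPM in PBS 1, 38.4 TPM in PBS 2 and 217 TPM in SyMSC 1 (2.06). Mmp25 (1.31) and Mmp8 (1.0), enzymes of neutrophils, were also higher. Mmp2, a gelatinase of fibroblasts, was at 770.2 TPM in AdMSC 1, 2261 TPM in PBS 1, 1931 TPM in PBS 2 and 611 TPM in SyMSC 1 (-1.55), and Mmp14, which activates it, had a ratio of -0.45. Mmp11 was listed at 0 in AdMSC 1, at 14.3 TPM in PBS 1 and at 0.07 TPM in PBS 2. Among 15 ADAMTS proteases and TIMPs, 1 was higher and 7 lower (median -0.71), also past both PBS libraries. Timp1, an inhibitor of metalloproteinases, was at 3905 TPM in AdMSC 1, 1159 TPM in PBS 1, 993 TPM in PBS 2 and 4155 TPM in SyMSC 1 (1.75), whereas Timp3 was at 65.2 TPM in AdMSC 1, 209 TPM in PBS 1, 222 TPM in PBS 2 and 35.1 TPM in SyMSC 1 (-1.66) and Timp4 had a ratio of -2.62. The aggrecanases Adamts4 (0.63) and Adamts5 (0.43) were within 2-fold of PBS 1, at 9.9 and 10.3 TPM in AdMSC 1.

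Growth factor lists had medians below equality, and their counts stand beside 11.1% higher and 12.3% lower over all genes. Of 9 insulin-like growth factor genes, 1 was higher and 6 lower (median -1.04, and -0.89 over PBS 2). Igf1 was at 201 TPM in AdMSC 1, 437 TPM in PBS 1, 354 TPM in PBS 2 and 147 TPM in SyMSC 1 (-1.12), Igfbp6, which binds Igf2, at 74.6 TPM in AdMSC 1, 778 TPM in PBS 1, 819 TPM in PBS 2 and 47.5 TPM in SyMSC 1 (-3.36), and Igfbp2 was the higher member (2.48). Of 21 TGF-beta and BMP genes, 3 were higher, 5 lower and 13 neither (median -0.55). Inhba, the activin A subunit, was at 112 TPM in AdMSC 1, 11.1 TPM in PBS 1, 9.53 TPM in PBS 2 and 40.7 TPM in SyMSC 1 (3.22), Grem1, a BMP antagonist, at 25.3 TPM in AdMSC 1, 2.39 TPM in PBS 1, 1.65 TPM in PBS 2 and 25.7 TPM in SyMSC 1 (2.96), and Tgfbr1, the type I receptor, at 80.9 TPM in AdMSC 1, 15.4 TPM in PBS 1, 14.6 TPM in PBS 2 and 75.2 TPM in SyMSC 1 (2.32). The ligands parted, with Tgfb1 at 0.91, Tgfb2 at -1.01 and Tgfb3 at -2.09, and Bmp4 at -1.71. Fst, which binds activin, was lower (-1.55). Of 14 Wnt pathway genes, 2 were higher and 6 lower (median -0.79), with the ligand Wnt5a (1.02) and the receptor Fzd1 (1.03) above and the secreted modulators Dkk3 (-2.92) and Sfrp2 (-2.35) below.

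Most vessel genes were lower than in both PBS libraries. Of 19 endothelial genes, 0 were higher and 14 lower (median -1.64, and -1.68 over PBS 2), and all 14 were past both. Pecam1 (gene ID 29583), a junction protein of endothelium, was at 45.1 TPM in AdMSC 1, 145 TPM in PBS 1, 173 TPM in PBS 2 and 33.6 TPM in SyMSC 1 (-1.66), and Vwf, the von Willebrand factor of endothelial granules, at 7.31 TPM in AdMSC 1, 35.5 TPM in PBS 1, 36.98 TPM in PBS 2 and 8.37 TPM in SyMSC 1 (-2.13). The receptor genes Tie1 (-0.23), Eng (-0.31) and Kdr (-0.77) were within 2-fold. Among 11 genes of leukocyte adhesion on vessels, 0 were higher and 7 lower (median -1.47). Vcam1 was at 32.2 TPM in AdMSC 1, 96.7 TPM in PBS 1, 126 TPM in PBS 2 and 34.9 TPM in SyMSC 1 (-1.56), but the selectins Selp (-0.02) and Sele (-0.35) and the integrin ligand Icam1 (-0.35), which inflamed vessels display, were within 2-fold. Mural and smooth muscle genes held 0 higher and 13 lower of 16 (median -1.83). Myh11, smooth muscle myosin, was at 10.3 TPM in AdMSC 1, 84.4 TPM in PBS 1, 132 TPM in PBS 2 and 11.6 TPM in SyMSC 1 (-2.92), Acta2 at 185 TPM in AdMSC 1, 562 TPM in PBS 1, 849 TPM in PBS 2 and 159.9 TPM in SyMSC 1 (-1.59), and Rgs5, of pericytes, at 166 TPM in AdMSC 1, 620.4 TPM in PBS 1, 573 TPM in PBS 2 and 73 TPM in SyMSC 1 (-1.89).

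Tissues that border the synovium differed between the PBS libraries themselves. Of 18 skeletal muscle genes, 1 was higher and 16 lower than in PBS 1 (median -3.76), with a median of -1.99 over PBS 2 and of -1.68 for PBS 2 over PBS 1. Acta1, skeletal muscle actin, was at 45.1 TPM in AdMSC 1, 663 TPM in PBS 1, 223 TPM in PBS 2 and 74.3 TPM in SyMSC 1 (-3.85), and Ckm, muscle creatine kinase, at 13.2 TPM in AdMSC 1, 230.5 TPM in PBS 1, 75.9 TPM in PBS 2 and 15.5 TPM in SyMSC 1 (-4.03). AdMSC 1 had the lowest value of both genes, and 14 members were lower than both PBS libraries. Of 14 adipocyte genes, 1 was higher and 5 lower than in PBS 1 (median -0.43), whereas 10 were lower than in PBS 2, the median over PBS 2 was -2.21 and the median of PBS 2 over PBS 1 was 1.2. Adipoq, adiponectin, was at 33.4 TPM in AdMSC 1, 39.7 TPM in PBS 1, 195 TPM in PBS 2 and 43.3 TPM in SyMSC 1 (-0.24), and -2.51 over PBS 2. Dgat2, which makes triglyceride, was the higher member at 121 TPM in AdMSC 1, 15.7 TPM in PBS 1, 50.5 TPM in PBS 2 and 191 TPM in SyMSC 1 (2.87). How much bordering tissue each sample held was not measured apart from these genes.

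Nerve genes were few. Of 7 Schwann cell and nerve genes at the floor, 1 was higher and 2 lower (median -0.78). S100b, a glial calcium-binding protein, was at 26.8 TPM in AdMSC 1, 199 TPM in PBS 1, 243 TPM in PBS 2 and 17.8 TPM in SyMSC 1 (-2.85), and the receptor Erbb3 at 24.5 TPM in AdMSC 1, 6.72 TPM in PBS 1, 6.94 TPM in PBS 2 and 22.6 TPM in SyMSC 1 (1.73). Of 11 keratinocyte and pigment genes in the table, Mlana was the 1 member at the floor, at 0.45 TPM in AdMSC 1, 30.5 TPM in PBS 1, 41.4 TPM in PBS 2 and 0.13 TPM in SyMSC 1.

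**Figure D5:**
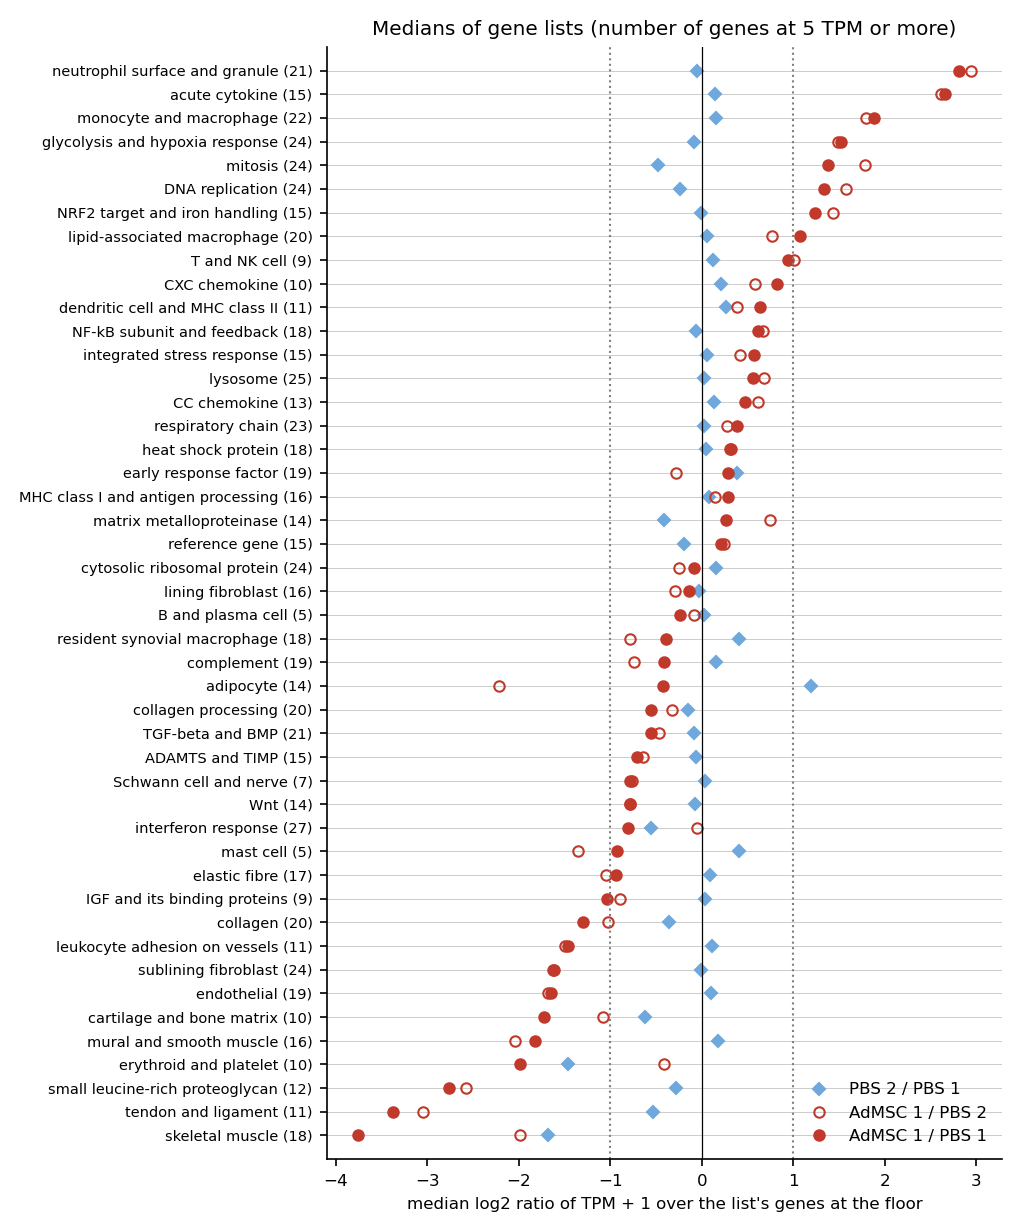
Median log2 ratio of TPM + 1 over the genes of each list at the floor (number in parentheses), for AdMSC 1 over PBS 1 (filled), AdMSC 1 over PBS 2 (open) and PBS 2 over PBS 1 (diamonds); the first and the last share PBS 1. Filled and open circles lie close for most lists, and apart for skeletal muscle (-3.76 and -1.99), erythroid (-1.99 and -0.42), adipocyte (-0.43 and -2.21) and interferon (-0.80 and -0.05) genes.

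Large ratios were also found where PBS 2 lay at least as far from PBS 1 on the same side. Echs1, a mitochondrial enzyme of fatty acid oxidation, was at 11.2 TPM in AdMSC 1, 0.02 TPM in PBS 1, 25.6 TPM in PBS 2 and 10.5 TPM in SyMSC 1 (3.57), with PBS 1 near 0. Romo1, of the mitochondrial inner membrane, was listed at 0 in PBS 1, with 10.7 TPM in AdMSC 1, 56.6 TPM in PBS 2 and 46.3 TPM in SyMSC 1. Natd1 was at 25.3 TPM in PBS 1 and listed at 0 in the other libraries. Myh1, a fast myosin, was at 1.62 TPM in AdMSC 1, 17.99 TPM in PBS 1, 1.17 TPM in PBS 2 and 0.9 TPM in SyMSC 1 (-2.86). RatNP-3b, a neutrophil defensin, was at 3.92 TPM in AdMSC 1, 30.8 TPM in PBS 1, 3.03 TPM in PBS 2 and 9.92 TPM in SyMSC 1 (-2.69), and Hemgn, of blood cell precursors, had 7.15 TPM in PBS 1, 0.71 in AdMSC 1 and 0.42 in PBS 2. For these 6 genes and Ngp, AdMSC 1 and PBS 2 lay on the same side of PBS 1. AdMSC 1 was itself lower than PBS 2 for Romo1 (-2.30) and Echs1 (-1.13).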

How the data were processed

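Bulk messenger RNA was measured in 4 libraries of rat synovium; AdMSC 1 and PBS 1 (1 library a side) were compared and PBS 2 and SyMSC 1 printed beside them. Per the labels' protocols, RNA was captured with oligo-dT beads, primed with random hexamers, its second strand marked with dUTP, and sequenced on a BGISEQ-500. Per the file header, the authors deposited TPM, and each library's TPM sums to the same total over the rat genes of the table. HISAT2 2.0.4 and the build Rnor_6.0 are named, without their roles, in the submitters' processing notes. How reads were counted, with which annotation and strand setting, and how human reads were treated is not given in the sources used here. No sample column was left unused. Some genes counted in the lists are not reported here by name.

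From these values the log2 ratio of TPM + 1 (pseudocount 1) was computed in Python 3.11.15 with pandas 2.3.3 for genes at 5 TPM or more in AdMSC 1 or PBS 1, and called past 2-fold; no test was run. The arithmetic was checked on simulated data. The comparison, its members and all 47 gene lists (928 entries, 913 matched, 7 of them by gene ID, 856 distinct genes, some in several lists) were chosen with earlier results of these data known. Named genes were the 15 highest and 15 lowest ratios also past 2-fold of PBS 2, up to 4 members of each list (those past 2-fold with the largest ratios, or else the most abundant), the 5 most abundant genes of each library, fixed genes of joint inflammation and matrix, and up to 8 genes for which PBS 2 lay as far from PBS 1. Further list members, the symbol families and the motif TTTNGCGC were chosen after their values were seen. 10 rows shared a symbol with another (for lists the row with the higher mean was used), 23 symbols were spreadsheet dates and 628 members had identifiers in place of symbols. Promoters (250 bases before to 50 after the start) and gene names came from RefSeq tables of GRCr8; 16718 of 17899 IDs matched, 13524 of them with a promoter, among them 8669 of the 10839 genes; the promoter coordinates are of that build and not of Rnor_6.0. Alternatives were PBS 2 or the mean of both PBS libraries as reference, other pseudocounts, floors, ratios and scalings.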

Additional observations from a re-analysis of the deposited data

Results flagged for a closer look

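In 25 genes the ratio of AdMSC 1 to PBS 1 and the ratio of SyMSC 1 to PBS 2, which share no library, lay on opposite sides by at least 2-fold each, and the difference was not tested. Brms1 (1.99 and -1.97) and Ebna1bp2 (1.97 and -1.10), singled out after their values were seen, were the members of this set past 2-fold of both PBS libraries. The genes below were past 2-fold of PBS 1 and not of PBS 2 on the same side. The red cell genes Ahsp (-2.03), a chaperone of alpha hemoglobin, Hemgn (-2.25) and Slc4a1 (-2.63), the anion exchanger of the red cell membrane, were lower in AdMSC 1 than in PBS 1. In the other pair they were higher, by 1.73, 1.86 and 1.92. The granule genes Camp (-2.37), Ngp (-2.82) and the defensin RatNP-3b (-2.69) followed the same pattern, with 1.6, 2.25 and 1.44 in the other pair. Ctsg, Defa5, Np4, Prg2 and Car2, further genes of marrow cells, are among the 25. For all of these named red cell and granule genes PBS 1 was above PBS 2.

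The metalloproteinase gene Mmp11 was at -3.93 in the AdMSC pair, where AdMSC 1 was listed at 0, and at 1.95 in the SyMSC pair. Zbp1, a nucleic acid sensor that interferon induces, was at -1.42 and 1.03. Echs1 was at 3.57 and -1.21, the reverse order, with PBS 1 near 0 TPM.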

How the results depend on the processing

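All counts rest on 1 library a side, with unknown read depth, so low values are imprecise by an unknown amount and no alternative supplies a replicate. The counts of genes at least 2-fold higher (1205) and genes at least 2-fold lower (1328) changed with the thresholds: a floor of 20 TPM gave 760 and 726, a ratio of 1.5 gave 2353 and 2210, and a ratio of 4 gave 337 and 355; these differ by construction. A pseudocount of 5 left 833 lower genes. Without PBS 1, with PBS 2 as the reference, 1299 were higher and 1299 lower. The median log2 ratio over members, 0.07, was 0.0963 without PBS 1, 0.0083 with a floor of 1 TPM, 0.1335 with 20 TPM, 0 with no floor, -0.0534 with upper-quartile scaling and 0.0296 when rescaled without erythroid and muscle genes. Without PBS 1 the sign turned for Echs1 (-1.13), Romo1 (-2.30), Ngp (0.73), LOC689064 (-0.64) and Rps14 (-0.50). In each of these genes AdMSC 1 and PBS 2 lay on the same side of PBS 1. Of 20 list medians past 2-fold, 17 remained so without PBS 1 (IGF, erythroid and lipid-associated macrophage lists did not), 18 with the mean of both PBS libraries, 19 with upper-quartile scaling and 20 with median-ratio scaling or another pseudocount. Of 194 named genes past 2-fold with a value in that setting, 180 remained past it without PBS 1. Without PBS 1 small list counts moved as well: lower members went from 1 to 2 for the integrated stress response and lysosome lists, from 2 to 1 for MHC class I and from 8 to 5 for cartilage and bone matrix, and higher members from 1 to 2 for the ADAMTS and TIMP and the B and plasma cell lists. With upper-quartile scaling Apoe, Cycs, Gapdh and Trem2 no longer passed 2-fold. No paired analysis was possible because the labels give no replicate numbers, and each pair of titles (Ad or Sy) holds 1 library a side, which allows no test.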

Other observations

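Symbol families outside the lists were read in the same way, after the values were seen. Toll-like receptors, which sense microbial and tissue danger signals, were higher in 6 of 8 and lower in 0 (median 2.05). Over all 13 in the table the median was 1.69. Tlr2 was at 201 TPM in AdMSC 1, 37.5 TPM in PBS 1, 47.2 TPM in PBS 2 and 259 TPM in SyMSC 1 (2.39), Tlr1 had a ratio of 4.08 and Tlr6 of 2.81, while Tlr4 (0.91) and Tlr3 (-0.1) were within 2-fold. Receptors of the Siglec and CD300 families, many of which restrain myeloid cells, were higher in 10 of 11 (median 2.06), 9 of them past both PBS libraries, with Cd300ld at 101 TPM in AdMSC 1, 5.46 TPM in PBS 1, 9.55 TPM in PBS 2 and 144 TPM in SyMSC 1 (3.98). Of 19 integrins, 6 were higher and 7 lower. Among the higher were Itgam (2.83), Itgb7 (2.51), Itgb2 (2.18) and Itgal (1.95), subunits found on leukocytes. Itga11 (-2.14), a collagen receptor of fibroblasts, Itgb4 (-2.07) and Itga7 (-1.96), both of laminin receptors, were among the lower.

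Hox transcription factors, which mark position along the body and limb, were lower in 7 of 9 and higher in 0 (median -1.13), with Hoxc10 at 19.5 TPM in AdMSC 1, 42.3 TPM in PBS 1, 40.6 TPM in PBS 2 and 10.3 TPM in SyMSC 1 (-1.08). Glutathione transferases were lower in 7 of 12 and higher in 0 (median -1.40), led by Gstt3 (-3.21) and Gstm2 (-2.59), although other redox genes such as Hmox1 were higher (3.82). Tubulins were higher in 7 of 13 and lower in 1 (median 1.06), with Tuba1c at 824 TPM in AdMSC 1, 251 TPM in PBS 1, 273 TPM in PBS 2 and 692 TPM in SyMSC 1 (1.71), and kinesins in 10 of 23 (median 0.68), many of them motors of the mitotic spindle. Over all 39 kinesins in the table the median was 0.27. Proteasome (0 of 37, median 0.39) and complex I (0 of 35, median 0.11) subunits held no member past 2-fold.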
